A study of Mus musculus with 7 samples.

Results

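Cells that had and had not switched on an Oct4 reporter during reprogramming in the same medium were compared here, with 1 library of mES-Oct4GFP+ cells and 1 library of mES-Oct4GFP- cells. They are 2 of the 7 libraries of the series and were chosen by their labels, which give the same medium and the 2 sorted fractions. Both came from OG2 mouse embryonic fibroblasts (MEFs), which carry an egfp reporter under the Oct4 promoter (GOF18ΔPE, an Oct4 regulatory fragment without its proximal enhancer). Both had been infected with retroviruses for the 4 factors, Oct4, Klf4, Sox2 and c-Myc. Both were then cultured in mES medium, a serum-containing medium with leukaemia inhibitory factor (LIF) and vitamin C, and were sorted by FACS on day 15 at passage 0. The study's list of components of mES medium names no inhibitor of ERK signalling or of GSK3. By their labels the groups differ in the sorted fraction only, GFP+ or GFP-. A second pair, 5C-Oct4GFP+ and 5C-Oct4GFP-, came from the same kind of cells cultured in the chemically defined 5C medium and sorted on the same day. Its 2 libraries, and that of 5C-Oct4GFP+ cells converted in naive medium (20 passages in the label), are given beside the mES pair where they show a difference. There is 1 library in each group, so that no difference between groups can be set against a spread between cultures, and no p-value is given. The labels do not say how many embryos or dishes a library pooled.

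Reprogramming by these 4 factors passes through cells that lose fibroblast traits and divide without completing the change, called pre-iPSCs, before some reach a pluripotent state. Naive pluripotency is the state of the pre-implantation epiblast, held in culture by LIF and by low activity of the FGF-ERK pathway, and primed pluripotency is that of the post-implantation epiblast. Retroviral transgenes drive the exogenous factors in cells that have not silenced them, whereas the Oct4 reporter is switched on with the endogenous pluripotency network.

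Expression was measured as TPM, transcripts per 1000000, which divides each gene's reads by its length and scales every library to the same sum. Of 29267 genes in each table, 12567 had at least 5 TPM in either library of the mES pair and were compared. Estimated counts summed to 6108252 in mES-Oct4GFP+ and 8821887 in mES-Oct4GFP-, so that for a gene of median length a single count stood for 0.181 and 0.134 TPM, respectively. A gene was called higher or lower at a 2-fold difference of TPM + 1, that is a log2(TPM + 1) difference of 1. Of the genes compared, 2128 were higher in mES-Oct4GFP+ (16.9%) and 3511 were lower (27.9%), so that 44.9% were past 2-fold in either direction. The median log2(TPM + 1) difference of all of them was -0.14, with quartiles of -1.17 and 0.64. At least 16-fold differences were found for 230 genes that were higher and 422 that were lower. Together, the 2128 genes made up 225755 TPM of mES-Oct4GFP+ and 58952 TPM of mES-Oct4GFP-. The 3511 lower genes made up 52403 and 265820 TPM. Folds of single genes are ratios of TPM and stand with an exact Clopper-Pearson 95% interval in parentheses, which covers the sampling of reads only and not the spread between cultures. Of the 5639 genes past 2-fold, this counting interval left out 1 for 5603. Where a library had no read of a gene, the fold was taken against 3 counts in that library and is a lower bound. A gene that reached 5 TPM in 1 library alone was compared because of that library, which favours a call in its direction. In such bulk libraries, fewer cells of a type and less RNA per cell cannot be told apart.

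**Figure D1:**
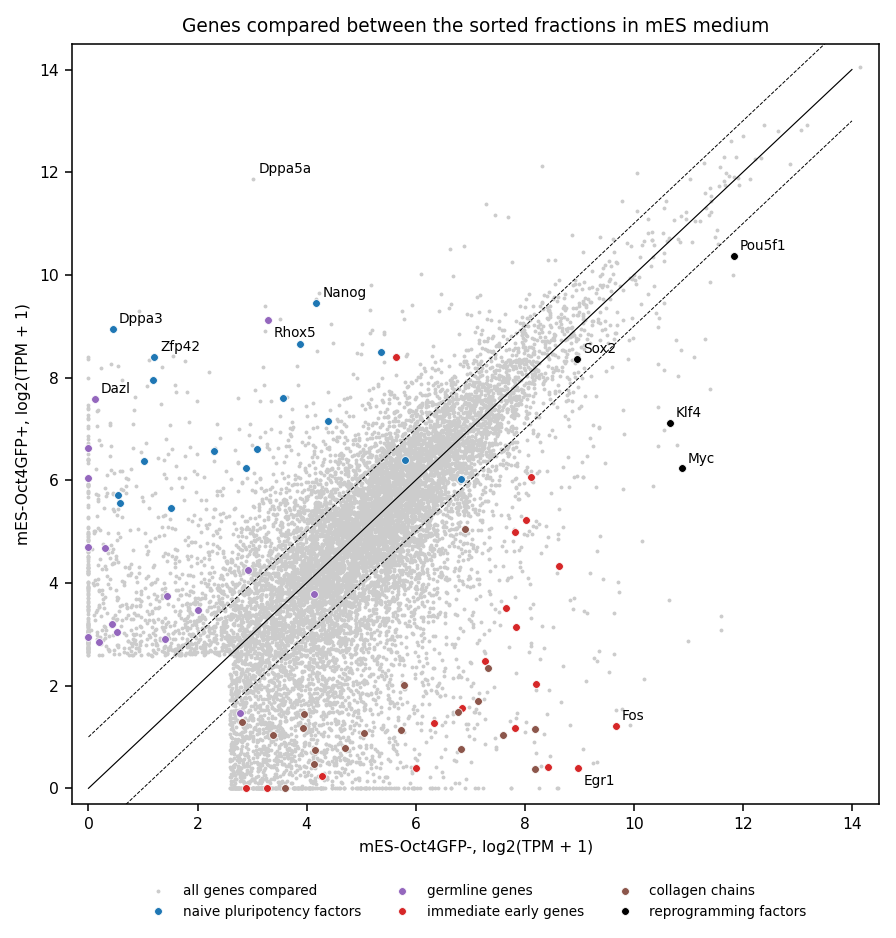
Each point is 1 of the 12567 genes compared, with its log2(TPM + 1) in mES-Oct4GFP- on the horizontal axis and in mES-Oct4GFP+ on the vertical axis, from 1 library each. The solid line marks equal values and the dashed lines 2-fold differences, and colours mark 5 of the gene lists. Nanog, Zfp42 and Dppa3 lie above the lines, Fos, Egr1 and all 19 collagen chains below them, and Klf4, Myc and Pou5f1 below at high levels in both libraries.

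The 4 reprogramming factors were the first check of the sort, since Pou5f1 encodes Oct4, whose promoter drives the reporter. At the level of the whole gene they were not higher in the reporter-positive cells. Pou5f1 (ENSMUSG00000024406, chromosome 17, 35506018 to 35510772) had 1321 TPM in mES-Oct4GFP+ against 3640.4 TPM in mES-Oct4GFP-, 2.76-fold (2.68 to 2.84) lower. Klf4 (ENSMUSG00000003032, chromosome 4, 55527143 to 55532466) had 138 against 1613 TPM, 11.6-fold (11 to 12.3) lower, and Myc (ENSMUSG00000022346, chromosome 15, 61985391 to 61990374) had 74 against 1884 TPM, 25.4-fold (22.8 to 28.5) lower. Sox2 had 328 against 498 TPM, which was within 2-fold. Together the 4 genes summed to 1862 TPM in mES-Oct4GFP+ and 7636 TPM in mES-Oct4GFP-. The tables do not separate retroviral from endogenous transcripts, and egfp is not among the genes compared, so neither the transgenes nor the reporter could be read directly. In the 5C pair, Klf4 and Myc were lower in the reporter-positive cells as well, with 522 against 1512 TPM and 211 against 1622 TPM. Pou5f1 was not, with 2429 against 1534 TPM.

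The naive pluripotency factors followed the label instead. Of 18 factors compared, 16 were higher in mES-Oct4GFP+ and none was lower, with a median log2 difference of 4.15 beside -0.14 for all genes. Nanog, a core transcription factor of the pluripotency network, had 697 TPM in mES-Oct4GFP+ against 17.1 TPM in mES-Oct4GFP-, 40.7-fold (34.7 to 47.9) higher. Zfp42 (Rex1, ENSMUSG00000051176, chromosome 8, 43295063 to 43306980), a zinc finger protein of naive cells, had 337 against 1.31 TPM, 257-fold (139 to 536) higher. Esrrb, an orphan nuclear receptor, had 246 against 1.26 TPM, 195-fold (129 to 308) higher. Zfp42 and Esrrb were therefore near 0 in mES-Oct4GFP-, while Nanog was still read there. Prdm14, which represses FGF signalling genes and DNA methyltransferases in naive cells, had 51.2 against 0.45 TPM. Tfcp2l1, a target of the LIF-STAT3 pathway, had 194 against 10.9 TPM, and Gbx2, another such target, had 81.6 against 1.02 TPM. Klf2 and Klf5, Krüppel-like factors of naive cells, stood out less, with 338 against 48.8 TPM and 141 against 19.9 TPM. The 2 members within 2-fold were Stat3, the transducer of LIF, with 64.1 against 113 TPM, and the Polycomb cofactor Jarid2, with 83 against 54.6 TPM. Residual pluripotency transcripts in mES-Oct4GFP- were low for nearly all of the list, at 343 TPM summed over 18 genes, against 3846 TPM in mES-Oct4GFP+.

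The promoter window of Zfp42 is shown because it was the only one of the 16 windows of this list, which cover the 12 members in the RefSeq table, to hold the octamer ATGCAAAT, the sequence bound by Oct4. The window runs from 250 bases before to 50 after the start on GRCm38.p6 (chr8:43306960-43307259, minus strand), 5′ to 3′, with the octamer, read on the opposite strand, in capitals. Both strands were searched, and 1.74% of all 32851 windows held the octamer.
Zfp42: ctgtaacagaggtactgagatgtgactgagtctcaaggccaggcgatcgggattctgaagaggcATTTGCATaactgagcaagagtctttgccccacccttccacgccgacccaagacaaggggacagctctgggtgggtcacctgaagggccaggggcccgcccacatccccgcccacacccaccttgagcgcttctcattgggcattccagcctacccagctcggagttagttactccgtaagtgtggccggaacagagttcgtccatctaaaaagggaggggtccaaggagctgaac
Among windows of the genes compared, the octamer was found in 1.58% of those of genes higher in mES-Oct4GFP+ and in 1.76% of those of genes lower, beside 1.34% of all genes compared.

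Genes shared by naive and primed pluripotent cells were mostly higher too, at 19 of 27 compared, with 1 lower and a median log2 difference of 2.26. Dppa5a, an RNA-binding protein of early embryos and the gene with the largest log2(TPM + 1) difference of all at a pseudocount of 1, though not the largest ratio (ENSMUSG00000060461, chromosome 9, 78367052 to 78368177), had 3754 TPM in mES-Oct4GFP+ against 7.06 TPM in mES-Oct4GFP-, 532-fold (332 to 913) higher. Dppa2 and Dppa4, partner proteins that prime promoters of early embryonic genes, had 133 against 0.12 TPM and 102 against 0.17 TPM. Both rested on 1 or 2 counts in mES-Oct4GFP-. Tdh, the threonine dehydrogenase on which mouse embryonic stem cells depend, had 640.3 against 34.6 TPM, 18.5-fold (16.3 to 21) higher. Sall4 and Tdgf1 were present in both fractions, with 171 against 34.8 TPM and 229 against 38.5 TPM. The exception was Lin28a, an RNA-binding protein that blocks let-7 maturation, with 24.2 against 75.9 TPM, 3.13-fold (2.74 to 3.58) lower in mES-Oct4GFP+. Lefty1, Lefty2, L1td1 and Apoe were within 2-fold.

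Formative and primed genes went the other way. Of 16 compared, 9 were lower in mES-Oct4GFP+ and 2 were higher, with a median of -1.70. Otx2, a homeobox factor that drives the exit from the naive state (ENSMUSG00000021848, chromosome 14, 48657677 to 48673819), had 0.41 TPM in mES-Oct4GFP+ against 40.1 TPM in mES-Oct4GFP-, 97.7-fold (33.3 to 479) lower. Fgf5 and Cer1 had 0.12 against 19 TPM and 0.72 against 33.2 TPM, and Pou3f1 (Oct6) had 0.48 against 6.18 TPM. The 2 that were higher were Lef1, a Wnt effector, with 43.9 against 7.13 TPM, and Nodal, with 34.9 against 10.7 TPM. Dnmt3b, a de novo DNA methyltransferase, was within 2-fold at 85.8 against 49.4 TPM.

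The 15 protein-coding genes with the largest differences in favour of mES-Oct4GFP+ included, after Dppa5a, several that are known from the germ line and the early embryo. Dppa3 (Stella), a maternal protein that protects DNA from oxidation of its methyl marks, had 494 TPM in mES-Oct4GFP+ against 0.37 TPM in mES-Oct4GFP-, 1335-fold (241 to 53190.3) higher on 1 count in mES-Oct4GFP-. Crxos, a homeobox gene, had 625 against 0.91 TPM. Aurkc, a meiotic Aurora kinase, had 255 TPM and no count in mES-Oct4GFP-, at least 328-fold higher. Tuba3a, an alpha-tubulin with a near-identical copy that makes its value uncertain, had 176 TPM and no count in mES-Oct4GFP-, at least 371-fold higher. Cdx1, a caudal homeobox gene that responds to Wnt, had 148 TPM and no count, at least 364-fold higher. The X-linked gene 1700013H16Rik had 336 TPM and no count, at least 569-fold higher. Little can be said of the function of Gm10139, Gm10772, C130073F10Rik and 2410141K09Rik, which had 329, 169.6, 248 and 322 TPM in mES-Oct4GFP+ and between 0 and 1.15 TPM in mES-Oct4GFP-. Gm10139 and Gm10772 are short genes with 106.8 and 102.5 counts in mES-Oct4GFP+, at least 47.2-fold and 45.3-fold higher. With counts scaled to the library total only, not to gene length, their log2 differences fell from 8.37 to 4.21 and from 7.41 to 4.15.

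Stra8, the gene that retinoic acid switches on before meiosis (ENSMUSG00000029848, chromosome 6, 34920163 to 34939344), stood apart from the others. It had 306 TPM in mES-Oct4GFP+ against 0.33 TPM in mES-Oct4GFP-, 928-fold (258 to 7716) higher. It was listed at 0 TPM in 5C-Oct4GFP+ cells and reached 4.67 TPM in 5C-Oct4GFP+ (naive) cells, whereas Dazl had 9.1 and 135 TPM there. Among the 7 libraries, its high level was thus seen in mES-Oct4GFP+ alone. Aldh1a2, which makes retinoic acid, had 16.4 against 0.83 TPM in the mES pair and 8.6 TPM in 5C-Oct4GFP+ (naive), and it was set beside Stra8 after its values were seen. In 5C-Oct4GFP- cells Aldh1a2 had 8.34 TPM, where Stra8 was listed at 0 TPM. A link between the 2 genes was not tested.

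**Figure D2:**
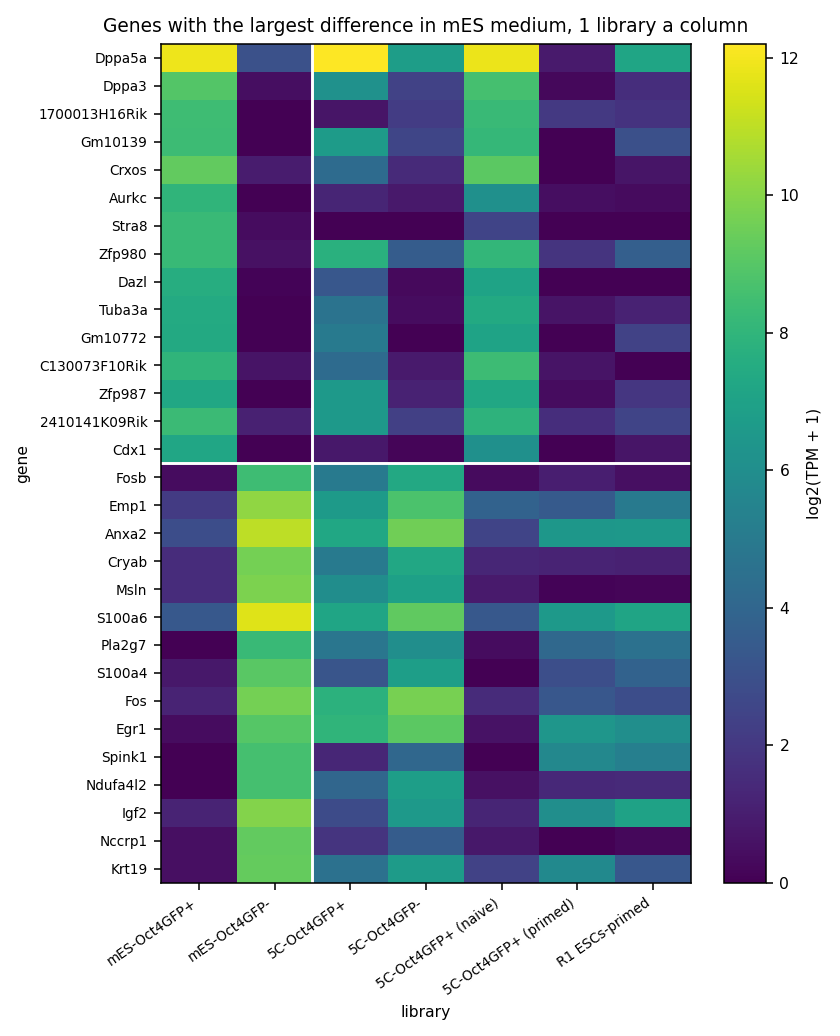
Rows are the 15 protein-coding genes with the largest log2(TPM + 1) difference in each direction in the mES pair, and columns are the 7 libraries, 1 each, coloured by log2(TPM + 1). In the upper block the column of 5C-Oct4GFP+ (naive) is nearest to that of mES-Oct4GFP+, with the widest gap at Stra8, 4.67 against 306 TPM, and in the lower block mES-Oct4GFP- is the highest column except at Fos and Egr1, which were slightly higher in 5C-Oct4GFP-.

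Germline genes whose promoters are silenced by DNA methylation in somatic cells were higher in summed level. Of 24 members 16 reached 5 TPM in either library, and 14 of these 16 were higher in mES-Oct4GFP+ and 1 was lower, with a median of 2.71. Members such as Dazl, Hormad1, Stk31, Tex101, Asz1 and Ddx4 reached the minimum in mES-Oct4GFP+ only, so that this count follows in part from the minimum. With a minimum of 10 TPM, or with FPKM, a length-scaled alternative to TPM, 9 were higher. Dazl, an RNA-binding protein of germ cells (ENSMUSG00000010592, chromosome 17, 50279395 to 50293636), had 191 TPM in mES-Oct4GFP+ against 0.08 TPM in mES-Oct4GFP-, a ratio of 2393-fold (434 to 95778) on 1 count in mES-Oct4GFP-. Rhox5, an X-linked homeobox gene, had 559 against 8.81 TPM, 63.4-fold (42.1 to 100.4) higher. Hormad1, a protein of the meiotic chromosome axis, and Stk31, a kinase of spermatogonia, had 98.4 and 64.6 TPM in mES-Oct4GFP+ and no count in mES-Oct4GFP-. They were at least 191-fold and at least 239.9-fold higher, respectively. Tex101 had 24.5 against 0.23 TPM, and the piRNA genes Asz1 and Ddx4 had 6.66 against 0 TPM and 8.22 against 0.34 TPM. Tdrkh, another piRNA gene, was the member that was lower, with 1.75 against 5.9 TPM. Summed over the list, mES-Oct4GFP+ had 1074 TPM, mES-Oct4GFP- 51.1 TPM, 5C-Oct4GFP+ 187 TPM and 5C-Oct4GFP+ (naive) 1262 TPM. The DNA methylation enzymes did not move one way. Of 9 compared, Tet1 (51.8 against 4.43 TPM), Uhrf1 (292 against 77.6 TPM), Dnmt1 (161 against 62.2 TPM) and Dnmt3l (5.31 against 1.31 TPM) were higher and Tet3 (2.22 against 17.3 TPM) was lower.

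Promoters of this list are shown because many held the E-box CACGTG, the recognition site of MYC, MAX and related factors. It was found in 8 of 14 windows, 57.1%, for the 12 members with a window in the RefSeq table, beside 10.1% of the windows of all genes compared and 7.15% of all windows. The windows of Hormad1 (chr3:95559427-95559726, plus strand) and Stk31 (chr6:49395289-49395588, plus strand) held it, with the matches in capitals, and that of Dazl (chr17:50293571-50293870, minus strand) did not. All are from RefSeq on GRCm38.p6 and run 5′ to 3′.
Hormad1: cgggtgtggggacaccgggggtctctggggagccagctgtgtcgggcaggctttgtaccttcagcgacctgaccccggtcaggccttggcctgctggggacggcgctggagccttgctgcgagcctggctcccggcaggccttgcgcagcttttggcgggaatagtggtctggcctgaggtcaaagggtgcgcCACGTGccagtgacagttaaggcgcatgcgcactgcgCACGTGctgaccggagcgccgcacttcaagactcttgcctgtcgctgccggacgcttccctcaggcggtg
Stk31: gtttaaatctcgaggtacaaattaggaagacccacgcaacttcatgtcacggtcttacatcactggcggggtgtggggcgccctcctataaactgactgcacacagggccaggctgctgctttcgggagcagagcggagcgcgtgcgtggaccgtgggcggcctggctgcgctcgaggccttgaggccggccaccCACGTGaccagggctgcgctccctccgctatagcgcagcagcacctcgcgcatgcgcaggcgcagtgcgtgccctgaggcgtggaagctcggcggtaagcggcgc
Dazl: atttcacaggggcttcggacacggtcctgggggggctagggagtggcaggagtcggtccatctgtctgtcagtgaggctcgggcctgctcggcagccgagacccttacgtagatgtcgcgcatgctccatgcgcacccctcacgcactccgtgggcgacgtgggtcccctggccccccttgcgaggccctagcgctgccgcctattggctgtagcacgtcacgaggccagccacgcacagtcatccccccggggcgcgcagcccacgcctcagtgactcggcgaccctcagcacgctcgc
Overlapping windows of alternative starts were counted each, as for Hormad1 and Stk31, which had 2 windows apiece. A match is a description of the sequence and does not show that a factor is bound there.

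Genes of the early embryo were detected at lower levels. Of 21 members, 17 were analysed here and 6 reached the TPM minimum and were compared, of which 5 were higher in mES-Oct4GFP+. These 5 reached the minimum in mES-Oct4GFP+ only, so that their direction follows in part from the minimum. Pramel6, which counters DNA methylation in the inner cell mass, had 100.1 TPM and no count in mES-Oct4GFP-, at least 129-fold higher. Obox6 had 53.9 TPM and no count, at least 101-fold higher. Pramef12 and Pramel7 had 68.9 against 1.61 TPM and 30.6 against 0.28 TPM. Zscan4f, which marks a rare state of embryonic stem cells that resembles the 2-cell embryo, had 6.54 against 0.13 TPM. These families have near-identical copies, among which the authors' counting may have divided reads, so that single members are uncertain.

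A group of zinc finger genes on chromosome 4 was higher almost without exception. It was chosen after its values were seen, because Zfp980 and Zfp987 were among the largest differences. Between Zfp990 and Zfp984, in 2.3 megabases (GRCm38, chromosome 4, 145510759 to 147809788), 27 genes were compared, of which 25 were higher in mES-Oct4GFP+ and 1 was lower. All 18 zinc finger genes among them were higher, with a median log2 difference of 5.67. Zfp980 (ENSMUSG00000058186, chromosome 4, 145670685 to 145704441) had 299 TPM in mES-Oct4GFP+ against 0.45 TPM in mES-Oct4GFP-, 663-fold (311 to 1848) higher. Zfp600 had 164 against 0.13 TPM, Zfp988 had 163 against 0.11 TPM and Rex2 had 227 against 1.11 TPM. Zfp993 differed least, with 68.6 against 28.8 TPM. Their summed level was 3035 TPM in mES-Oct4GFP+ and 112 TPM in mES-Oct4GFP-. All 18 were past 2-fold in the same direction in the 5C pair, with 2360.4 and 368 TPM. In the primed libraries they summed to 178 TPM in 5C-Oct4GFP+ (primed) and 206 TPM in R1 ESCs-primed, against 3015 TPM in 5C-Oct4GFP+ (naive).

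Several of these genes have promoter windows that are close copies of each other, and the share of reads given to each gene is uncertain. A run of 28 bases was the longest that the windows of Zfp980, Zfp987, Rex2 and Zfp988 had in common, and it is in capitals. It was present in 8 of the 15 windows of the cluster, which cover 12 of its 18 zinc finger genes. On either strand, 0.0244% of all 32851 windows held it, which were the same 8. The windows are at chr4:145670447-145670746, plus strand, chr4:146097062-146097361, plus strand, chr4:147021600-147021899, plus strand and chr4:147305354-147305653, plus strand, from RefSeq on GRCm38.p6, 5′ to 3′.
Zfp980: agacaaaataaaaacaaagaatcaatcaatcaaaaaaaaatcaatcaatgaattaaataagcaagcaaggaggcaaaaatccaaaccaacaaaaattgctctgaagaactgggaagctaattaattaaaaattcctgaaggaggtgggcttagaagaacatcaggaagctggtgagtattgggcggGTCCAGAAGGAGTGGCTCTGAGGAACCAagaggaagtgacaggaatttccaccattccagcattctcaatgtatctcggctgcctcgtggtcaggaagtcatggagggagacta
Zfp987: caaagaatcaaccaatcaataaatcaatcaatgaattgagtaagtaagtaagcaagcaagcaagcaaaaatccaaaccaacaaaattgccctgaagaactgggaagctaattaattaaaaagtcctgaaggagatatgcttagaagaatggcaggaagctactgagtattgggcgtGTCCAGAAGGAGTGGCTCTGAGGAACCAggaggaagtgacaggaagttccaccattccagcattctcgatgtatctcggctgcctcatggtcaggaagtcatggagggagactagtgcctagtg
Rex2: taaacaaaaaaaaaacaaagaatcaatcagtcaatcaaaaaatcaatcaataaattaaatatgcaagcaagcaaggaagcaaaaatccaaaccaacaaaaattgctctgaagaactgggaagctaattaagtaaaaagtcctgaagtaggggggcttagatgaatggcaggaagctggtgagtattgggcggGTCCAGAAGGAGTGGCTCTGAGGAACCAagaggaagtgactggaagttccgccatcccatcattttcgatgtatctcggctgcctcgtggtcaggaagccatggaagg
Zfp988: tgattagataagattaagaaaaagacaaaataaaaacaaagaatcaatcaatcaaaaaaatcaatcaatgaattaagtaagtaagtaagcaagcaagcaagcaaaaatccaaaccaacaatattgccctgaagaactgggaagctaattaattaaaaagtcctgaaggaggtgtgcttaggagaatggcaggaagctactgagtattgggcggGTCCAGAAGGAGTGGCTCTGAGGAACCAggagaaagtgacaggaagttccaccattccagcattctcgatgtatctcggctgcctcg

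**Figure D3:**
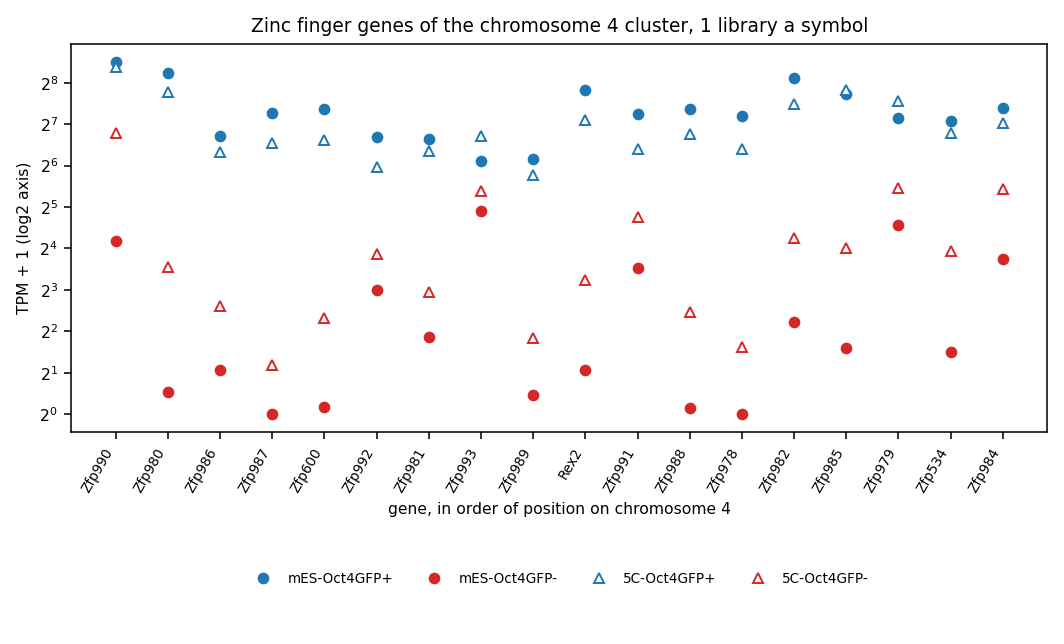
The 18 zinc finger genes of the chromosome 4 cluster stand in order of position on the horizontal axis, with TPM + 1 on a log2 axis in the 4 sorted libraries, 1 symbol for each library. Blue symbols (Oct4GFP+) lie above red symbols (Oct4GFP-) for every gene in both media, and the filled red circles of mES-Oct4GFP- are the lowest for all 18.

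Immediate early genes, which growth factors and stress induce within minutes, had a median log2 difference of -4.70, the lowest of all lists other than the markers of fibroblasts and of stratified epithelium. Of 19 compared, 18 were lower in mES-Oct4GFP+, and Klf2, also a naive factor, was higher. Egr1 had 0.32 TPM in mES-Oct4GFP+ against 500.1 TPM in mES-Oct4GFP-, 1563-fold (619.6 to 5827) lower, and Fos had 1.33 against 815 TPM, 613-fold (323 to 1343) lower. Fosb, Jun, Junb and Atf3 had 0.33 against 344 TPM, 3.08 against 294 TPM, 19.2 against 397 TPM and 1.26 against 226 TPM. Junb thus kept a level above the 5 TPM minimum in mES-Oct4GFP+, while the others of these 6 did not. In the 5C pair, sorted on the same day, 13 of the 19 were lower in the Oct4GFP+ cells and 1 was higher, with a median of -1.23 and summed levels of 2066 against 3991 TPM. The sums of the mES pair were 524 against 4259 TPM. Egr1 and Fos had 253 and 228 TPM in 5C-Oct4GFP+, and 0.5 and 1.87 TPM in 5C-Oct4GFP+ (naive).

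Feedback genes of the ERK pathway did not all move one way. Dusp6, Dusp4 and Spry4, which ERK induces and which restrain it, had 3.53 against 34.7 TPM, 0.23 against 59.9 TPM and 0.4 against 26.6 TPM in the mES pair. They had 73.7, 37.8 and 22.5 TPM in 5C-Oct4GFP+ and 7.0, 0.24 and 1.92 TPM in 5C-Oct4GFP+ (naive). Spry2, of the same Sprouty family as Spry4, was higher in mES-Oct4GFP+, with 76.7 against 35.6 TPM, and had 107 and 72.7 TPM in those libraries. Axin2, a negative regulator that Wnt signalling induces, had 98.3 TPM in mES-Oct4GFP+ against 3.99 TPM in mES-Oct4GFP-, 24.6-fold (19 to 32.4) higher, with 4.98 TPM for 5C-Oct4GFP+ cells and 105 TPM after naive conversion. Sp5, another direct Wnt target that was picked after its values were seen, had 116 against 6.71 TPM, with 0.43 and 149.6 TPM in the same libraries. Nkd1, a further Wnt target looked at in the same way, was lower in mES-Oct4GFP+, with 1.86 against 6.73 TPM, and had 0.7 and 1.05 TPM there. For Dusp6, Dusp4, Spry4, Axin2 and Sp5 the level in mES-Oct4GFP+ was nearer to that of the naive-medium library than to that of 5C-Oct4GFP+, as a ratio. The same held for Spry2 and Nkd1, for which the 3 libraries lay closer together. The part of the culture medium in this was not tested. Of all 38 FGF, BMP, Wnt and LIF pathway genes compared, 25 were lower in mES-Oct4GFP+ and 5 were higher, namely Axin2, Lef1, Tcf7, Fgf4 and Spry2. Id1, Id2 and Id3, targets of BMP signalling, had 4.19 against 414 TPM, 11.8 against 137 TPM and 17.9 against 248 TPM. Bmp2, Bmp4 and the BMP antagonist Grem1 had 0.09 against 15.9 TPM, 4.4 against 27.3 TPM and 0.07 against 7.62 TPM. Of the LIF receptor chains, Lifr (12.9 against 22.7 TPM) and Il6st (53.5 against 37.3 TPM) were within 2-fold, and Socs3, the feedback inhibitor of LIF signalling, had 39.6 against 139 TPM.

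Fibroblast and matrix genes were higher in mES-Oct4GFP- than in mES-Oct4GFP+. All 9 fibroblast markers compared, of 12, were lower in mES-Oct4GFP+, and their summed level was 15.5 TPM in mES-Oct4GFP+ and 602 TPM in mES-Oct4GFP-. Members such as Prrx1, Col1a1 and Col3a1 reached the minimum in mES-Oct4GFP- only, so that this count follows in part from the minimum. Among mesenchymal genes and transcription factors of the epithelial-mesenchymal transition (EMT), 26 of 30 were lower and 1 was higher, with a median of -3.37. Prrx1, a homeobox factor of fibroblasts, had 0.24 TPM in mES-Oct4GFP+ against 87.9 TPM in mES-Oct4GFP-, a ratio of 366-fold (66.2 to 14602) on 1 count in mES-Oct4GFP+. Cd44, a hyaluronan receptor, had 0.36 against 314 TPM, 871-fold (397 to 2359.7) lower, and S100a6, a calcium-binding protein, had 9.3 against 3114 TPM, 335-fold (217 to 548) lower. Vim, the mesenchymal intermediate filament, remained at 335 TPM in mES-Oct4GFP+ against 2209 TPM. Twist1 and Zeb2, EMT factors, had 0.97 against 31.7 TPM and 0.35 against 11.3 TPM, whereas Snai1, with 6.02 against 11.4 TPM, was within 2-fold. Cdh2, which encodes N-cadherin, had 3.77 against 42.4 TPM. Fibronectin, Fn1, was nearly equal, with 618 against 668 TPM, and Eng, a TGFβ co-receptor, was the member that was higher, with 58 against 15.7 TPM.

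Every one of the 19 collagen chains compared was lower in mES-Oct4GFP+, with a median of -3.90 and summed levels of 57.5 and 1675 TPM over 23 chains. Chains such as Col6a1, Col4a1, Col4a2, Col1a1 and Col3a1 reached the minimum in mES-Oct4GFP- only, so that this count follows in part from the minimum. Col6a1 had 0.3 TPM in mES-Oct4GFP+ against 292 TPM in mES-Oct4GFP-, 972-fold (381 to 3588) lower. The basement membrane chains Col4a1 and Col4a2 had 1.24 against 289 TPM and 1.04 against 193 TPM, and the fibrillar chains Col1a1 and Col3a1 had 4.05 against 159.6 TPM and 2.23 against 140.4 TPM. Col18a1 differed least at 32.2 against 118 TPM. Matrix proteases and inhibitors were lower for 13 of 15, such as Mmp14 (4.4 against 128 TPM) and Plaur (1.36 against 88.4 TPM). Small matrix proteoglycans and basement membrane genes were lower for 14 of 21 and higher for 2. Contractile genes and YAP targets were lower for 16 of 17, with a median of -3.65. Acta2, smooth muscle actin, had 0.88 against 286 TPM, 325-fold (139 to 1003) lower, and Ccn1 and Ccn2, targets of YAP, had 15.2 against 837 TPM and 27.9 against 392 TPM. Only Actn1, with 149.8 against 124 TPM, was within 2-fold.

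Epithelial genes did not follow the sort as a group. Cdh1, which encodes E-cadherin (ENSMUSG00000000303, chromosome 8, 106603351 to 106670246), had 295 TPM in mES-Oct4GFP+ against 124 TPM in mES-Oct4GFP-, 2.38-fold (2.27 to 2.51) higher. The adhesion molecule Epcam was equal within 2-fold, with 208 against 218 TPM. Of the 30 epithelial genes compared, however, 20 were lower in mES-Oct4GFP+ and 3 were higher, with a median of -2.41. The keratins of simple epithelia were at high levels in mES-Oct4GFP- and near absent from mES-Oct4GFP+. Krt8 had 3.82 against 748 TPM, Krt18 had 1.36 against 454 TPM, and Krt19 (ENSMUSG00000020911, chromosome 11, 100140810 to 100148665), with the largest log2(TPM + 1) difference of all genes compared in this direction, though not the largest ratio, had 0.42 against 643 TPM, 1529.8-fold (419 to 12517) lower. The tight junction genes Cldn6 and Cldn7 had 11.1 against 166 TPM and 2.89 against 87.9 TPM, the desmosomal gene Dsp had 8.5 against 173 TPM, and the splicing regulator Esrp1 had 0.82 against 49.2 TPM. Besides Cdh1, the genes that were higher were Elf3, with 175 against 67 TPM, and Llgl2, with 125 against 59.4 TPM. Of 16 stratified epithelium genes 14 were lower and Sprr2a1 was higher, with 8.99 against 3.23 TPM. Those lower included Itgb4, with 3.28 against 555 TPM, Krt17, with 149 TPM in mES-Oct4GFP- and no count in mES-Oct4GFP+, and Perp, with 12 against 476 TPM. Their defining factor Trp63 was near 0 in both, with 0.26 against 0.89 TPM. Epithelial and mesenchymal transcripts were therefore both abundant in mES-Oct4GFP-. A bulk library does not show whether they were in the same cells. In the 5C pair 12 of the same 30 epithelial genes were higher in 5C-Oct4GFP+ and 4 were lower.

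The other genes with the largest differences in favour of mES-Oct4GFP- were mixed. Nccrp1, found in stratified epithelia, had 0.41 TPM in mES-Oct4GFP+ against 610.1 TPM in mES-Oct4GFP-, 1488-fold (409.6 to 12230.4) lower. Msln, a surface protein of mesothelium, had 1.91 against 879 TPM, and Spink1, a trypsin inhibitor, had 386 TPM in mES-Oct4GFP- and no count in mES-Oct4GFP+. Anxa2, a membrane-binding annexin, had 6.34 against 2036 TPM, Cryab, a small heat shock protein, had 1.89 against 811 TPM, and Emp1, an epithelial membrane protein, had 3.4 against 1169.7 TPM. S100a4, a calcium-binding protein of motile cells, had 0.71 against 536 TPM and Pla2g7, a secreted phospholipase, had 307 TPM and no count in mES-Oct4GFP+.

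Genes of the extraembryonic lineages were higher in mES-Oct4GFP- too. Of 13 primitive endoderm genes, 12 were lower in mES-Oct4GFP+, and Lama1 was within 2-fold. Gata4, Gata6 and Sox17, the factors that define this lineage, had 0.8 against 33 TPM, 1.83 against 10.5 TPM and 1.67 against 18.2 TPM. Dab2, an endocytic adaptor, had 5.78 against 103 TPM, and the yolk sac products Afp and Ttr had 19.2 and 36 TPM in mES-Oct4GFP- and no count in mES-Oct4GFP+. Gata4, Gata6, Sox17, Afp and Ttr reached the minimum in mES-Oct4GFP- only, so that the count of this list follows in part from the minimum. Of 12 trophoblast genes 10 were lower. Hand1 had 0.17 against 42.6 TPM and Eomes 0.6 against 10.3 TPM, and both reached the minimum in mES-Oct4GFP- only. The exceptions were Cdx2, with 10.6 against 1.45 TPM, and Tfap2c, with 86.9 against 9.42 TPM, a factor that naive cells also express. Hox genes, which keep the positional memory of fibroblasts, were lower for 14 of 20 compared. This count depended on the minimum, at 9 with a minimum of 10 TPM or with FPKM and 22 with a minimum of 1 TPM. Hoxc6 had 0.8 against 35.4 TPM and Hoxa5 1.17 against 10.8 TPM, and both reached the minimum in mES-Oct4GFP- only. Among those higher were Hoxb9, Hoxc12 and Hoxc13, the last with 15.7 against 0.09 TPM. Markers of other cell types were few. Macrophage markers summed to 13.1 TPM in mES-Oct4GFP+ and 58.2 TPM in mES-Oct4GFP-, mostly Cd68, with Ptprc, Adgre1 and C1qb at 0.8, 0.14 and 0 TPM in mES-Oct4GFP-. Endothelial markers summed to 47 and 62.6 TPM, muscle markers to 2.6 and 1.3 TPM and red cell markers to 1.6 and 4.7 TPM. No muscle or red cell marker reached 5 TPM in either library.

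Imprinted genes, expressed from 1 parental copy, were lower in mES-Oct4GFP+ for 17 of 25 compared and higher for 2. H19, a long noncoding RNA (ENSMUSG00000000031, chromosome 7, 142575529 to 142578143), had 7.45 TPM in mES-Oct4GFP+ against 3110.2 TPM in mES-Oct4GFP-, 417-fold (319 to 558) lower. Its neighbour Igf2 (ENSMUSG00000048583, chromosome 7, 142650766 to 142666816), a fetal growth factor, had 1.35 against 972 TPM, 720.0-fold (392 to 1504) lower. Grb10, an inhibitor of insulin signalling, had 15.8 against 688 TPM, Dlk1 had 1.48 against 210.0 TPM and Peg10 had 7.89 against 319.6 TPM. In contrast, the noncoding RNAs Meg3 and Rian, which lie next to Dlk1, were within 2-fold, with 318 against 497 TPM and 409 against 736 TPM. Plagl1, a zinc finger factor that controls other imprinted genes, and the amino acid transporter Slc38a4 were higher, with 135 against 53.5 TPM and 194 against 49.4 TPM. All 10 genes compared of the insulin-like growth factor axis were lower, such as Igfbp3 (10.2 against 469 TPM) and Igf1r (5.17 against 56.5 TPM). Xist, the RNA that coats the inactive X chromosome of female cells, had 1.45 against 258 TPM, 178-fold (138 to 239) lower. Y-linked Ddx3y and Eif2s3y, picked after their values were seen, were read in both libraries, with 36.6 against 16.2 TPM and 102 against 37.8 TPM. Both libraries therefore held male cells, and the makeup of the pools by sex was not tested. The 449 X-linked genes compared had a median log2 difference of -0.24, within the range of the autosomes, from -0.34 on chromosome 15 to 0.04 on chromosome 4. The 9 Y-linked genes compared had a median of 1.41, outside that range, with 7 higher in mES-Oct4GFP+ and none lower.

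Glycolysis genes were lower in mES-Oct4GFP+, and respiratory subunits were close to equal. Of 31 glycolytic enzymes, transporters and regulators compared, 20 were lower in mES-Oct4GFP+ and 1 was higher, with a median of -1.83. Ldha, the lactate dehydrogenase subunit of glycolytic cells, had 217 TPM in mES-Oct4GFP+ against 2699 TPM in mES-Oct4GFP-, 12.4-fold (11.7 to 13.2) lower, whereas its counterpart Ldhb was the member that was higher, with 376 against 129 TPM. Slc2a1, the glucose transporter GLUT1, had 102 against 1765 TPM, 17.3-fold (16.2 to 18.6) lower, and Slc16a3, the lactate exporter MCT4, had 2.22 against 406 TPM, 183-fold (105 to 354) lower. Pgk1, Tpi1 and Pdk1 had 260.2 against 1791 TPM, 170.1 against 1383 TPM and 28.7 against 162 TPM. Gapdh and Slc2a3 were within 2-fold, with 7729.7 against 9200.4 TPM and 533 against 667 TPM. Summed over 32 genes, the list made up 13264 TPM in mES-Oct4GFP+ and 29992 TPM in mES-Oct4GFP-. In the 5C pair the order of the sums was the opposite, with 19848 TPM for the Oct4GFP+ and 15219 TPM for the Oct4GFP- cells. By member, however, 3 were at least 2-fold higher and 5 lower in 5C-Oct4GFP+, with a median of 0.35. Hif1a itself was within 2-fold, at 51.4 against 65.9 TPM. Targets of HIF outside the list, picked after their values were seen, were lower as well. Ndufa4l2, which replaces a respiratory subunit in hypoxia and was among the 15 largest differences, had 392 TPM and no count in mES-Oct4GFP+, at least 386-fold lower. Egln3, a prolyl hydroxylase that HIF induces, had 5.1 against 799.9 TPM, and Bnip3, a mitophagy receptor, had 23.6 against 639 TPM.

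The promoter of Slc16a3 is shown because it held the HIF site NACGTGC, a letter N standing for any base, at 2 places. The site was found in 10 of 48 windows of the glycolysis list, 20.8%, for 29 members with a window, beside 8.31% of the windows of all genes compared and 5.91% of all windows. Members with the site included Gapdh and Hif1a, which were within 2-fold. The share was larger in the germline list, at 5 of 14 windows (35.7%), and in serine, glycine and threonine metabolism, at 3 of 13 (23.1%). Both of these lists had more members higher than lower. Of the reprogramming factors, 1 of 4 windows held it (25%). Among all genes compared, the site was in 8.95% of the windows of genes higher in mES-Oct4GFP+ and in 7.28% of those of genes lower. It overlaps the E-box where the first base is C. The window is at chr11:120948817-120949116, plus strand, from RefSeq on GRCm38.p6, with the matches in capitals.
Slc16a3: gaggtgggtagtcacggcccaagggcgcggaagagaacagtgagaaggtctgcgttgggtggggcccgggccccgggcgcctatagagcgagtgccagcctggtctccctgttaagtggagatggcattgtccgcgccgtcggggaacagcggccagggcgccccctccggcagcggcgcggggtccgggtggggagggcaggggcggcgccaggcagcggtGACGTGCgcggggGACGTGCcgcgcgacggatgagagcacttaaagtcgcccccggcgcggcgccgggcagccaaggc
Subunits of the respiratory complexes were within 2-fold for 37 of 39, with a median of 0.25. Cox7a1 (181 against 16.4 TPM) and Cox5a (902 against 376 TPM) were higher. In the metabolism of serine, glycine and threonine 7 of 13 genes were higher and none was lower. Besides Tdh, Shmt1 had 191 against 35.3 TPM and Amt, of the glycine cleavage system, had 110.3 against 21.4 TPM.

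Genes of DNA replication and mitosis were higher in mES-Oct4GFP+ for 24 of 31 compared, with a median of 1.55. Mcm2, of the replicative helicase, had 308 TPM in mES-Oct4GFP+ against 66.4 TPM in mES-Oct4GFP-, 4.63-fold (4.31 to 4.98) higher. Ccnb1 and Cdk1, which drive mitosis, had 392 against 78.7 TPM and 473 against 135 TPM. D-type cyclins did not follow. Ccnd2 had 1.07 against 326 TPM, 305-fold (198 to 501) lower, Ccnd1 had 125 against 284 TPM and Ccnd3 was within 2-fold at 206 against 213 TPM. Among cell-cycle inhibitors and p53 targets, 7 of 17 were lower and 2 were higher. Cdkn1c, Cdkn2a and Cdkn1a, inhibitors of cyclin-dependent kinases, had 3.3 against 73.2 TPM, 49 against 236 TPM and 296 against 778 TPM, while Trp53 had 437 against 159.6 TPM. Of 20 Polycomb and related chromatin factors, 9 were higher and 4 lower. Mtf2 and Eed, of Polycomb repressive complex 2, had 216 against 34.2 TPM and 160.1 against 42.4 TPM, and Ezh2 had 207 against 80.9 TPM. Cbx7, a chromatin reader of the other Polycomb complex, had 114 against 22.4 TPM. Of 13 telomere genes 5 were higher and none was lower, led by Rif1 (177 against 31.2 TPM) and Terf1 (202 against 47.4 TPM).

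MHC class I and interferon genes were lower in mES-Oct4GFP+ for 17 of 23 compared, with none higher. B2m and H2-K1, which present peptides to T cells, had 23.7 against 221 TPM and 25.1 against 244 TPM, and Irf7 and Isg15, interferon-induced genes, had 1.29 against 36.6 TPM and 1.32 against 48.1 TPM. Of 11 cytokines and chemokines 8 were lower, such as Ccl2 (0.81 against 23 TPM) and Csf1 (0.39 against 20.1 TPM). Spp1, osteopontin, was higher at 685 against 59.9 TPM. The remaining lists had members in both directions or few past 2-fold. Lysosome and phagocytosis genes were lower for 4 of 17, and splicing regulators were higher for 2 and lower for 4 of 16. Of the others, glutathione and aldehyde detoxification genes were higher for 4 and lower for 9 of 24. Likewise, neural genes were higher for 3 and lower for 3 of 7, and Lin28, Hmga and Igf2bp genes were higher for 1 and lower for 2 of 7.

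**Figure D4:**
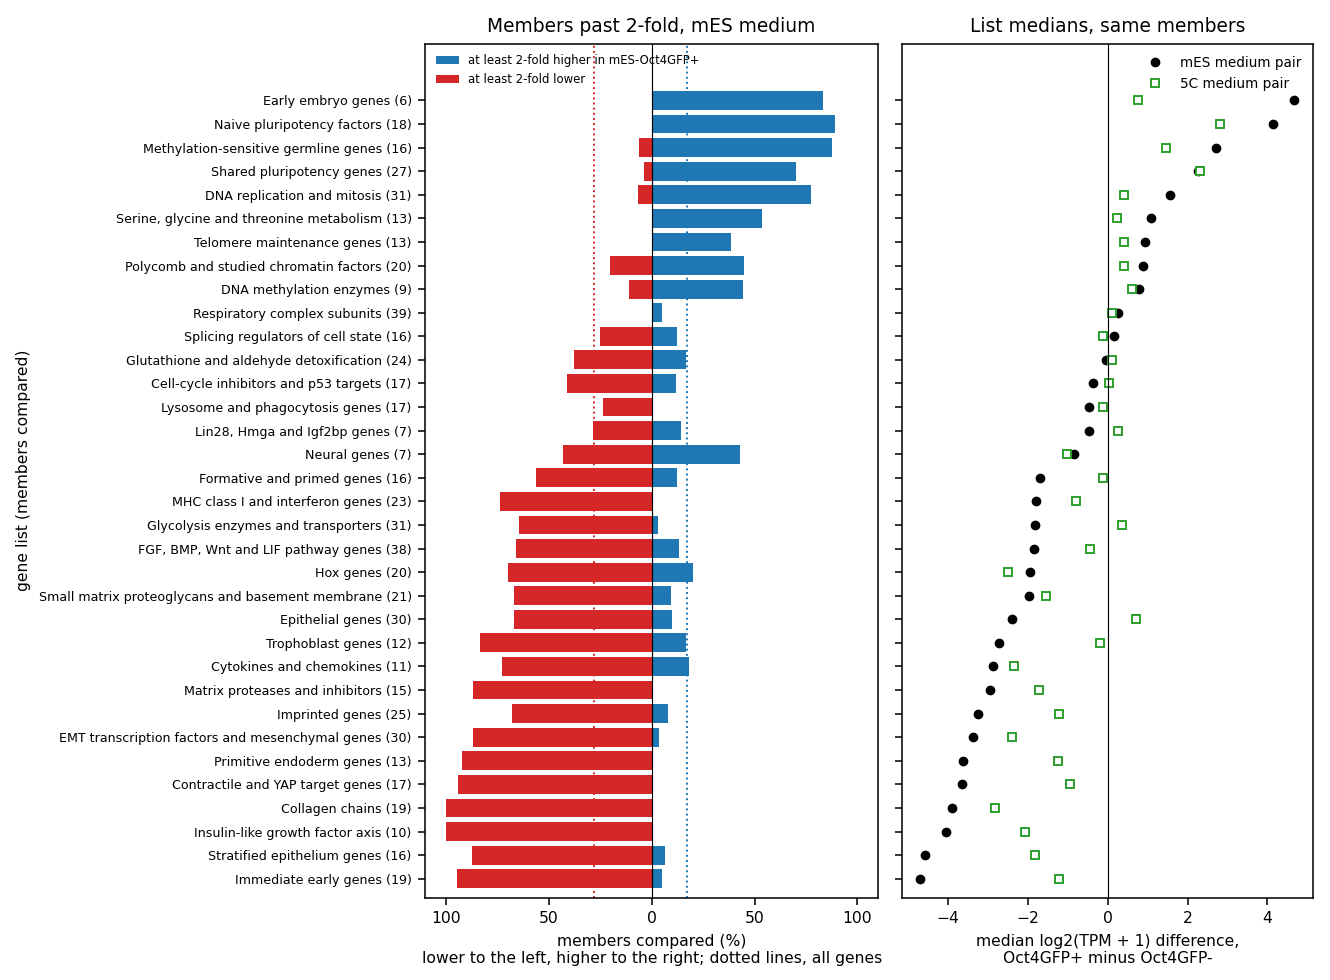
The left panel gives, for each gene list with at least 6 members compared, the percentage of members at least 2-fold higher (blue, to the right) or lower (red, to the left) in mES-Oct4GFP+, with dotted lines for all genes compared, 16.9% and 27.9%. The right panel gives the median log2(TPM + 1) difference of the same members in the mES pair (filled circles) and in the 5C pair (open squares), which lie on opposite sides of 0 for, among others, epithelial and glycolysis genes.

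The same sort in 5C medium gave a second pair of libraries that shares none with the first. Medium and library differ together between the pairs, so that it is not a replicate. Of the 2128 genes higher in mES-Oct4GFP+, 645 (30.3%) were also at least 2-fold higher in 5C-Oct4GFP+, beside 7.21% of all genes compared, and 91 (4.28%) were at least 2-fold lower. Of the 3511 genes lower in mES-Oct4GFP+, 1830 (52.1%) were also lower in 5C-Oct4GFP+, beside 19.5% of all, and 77 (2.19%) were higher. The sign was shared by 77.5% of the former and 87.6% of the latter. The median difference was 0.5 for the higher and -1.05 for the lower genes in 5C medium, and 1.75 and -2.14 in mES medium, where the genes had been selected for their size of difference. Across the 12567 genes the 2 differences had a Pearson r of 0.669, given as a description since genes are not independent and the libraries differ in depth.

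Within the pluripotency lists, members differed in either direction between the media. Nanog had 253 against 119.5 TPM in the 5C pair, and Gbx2 had 57.8 against 47 TPM, where the mES pair had 697 against 17.1 TPM and 81.6 against 1.02 TPM. Utf1 and Dnmt3l differed more in the 5C pair, with 1034 against 99.9 TPM and 525 against 1.04 TPM, than in the mES pair, with 42.2 against 19.2 TPM and 5.31 against 1.31 TPM. None of these differences between media could be set against a spread between cultures.

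**Figure D5:**
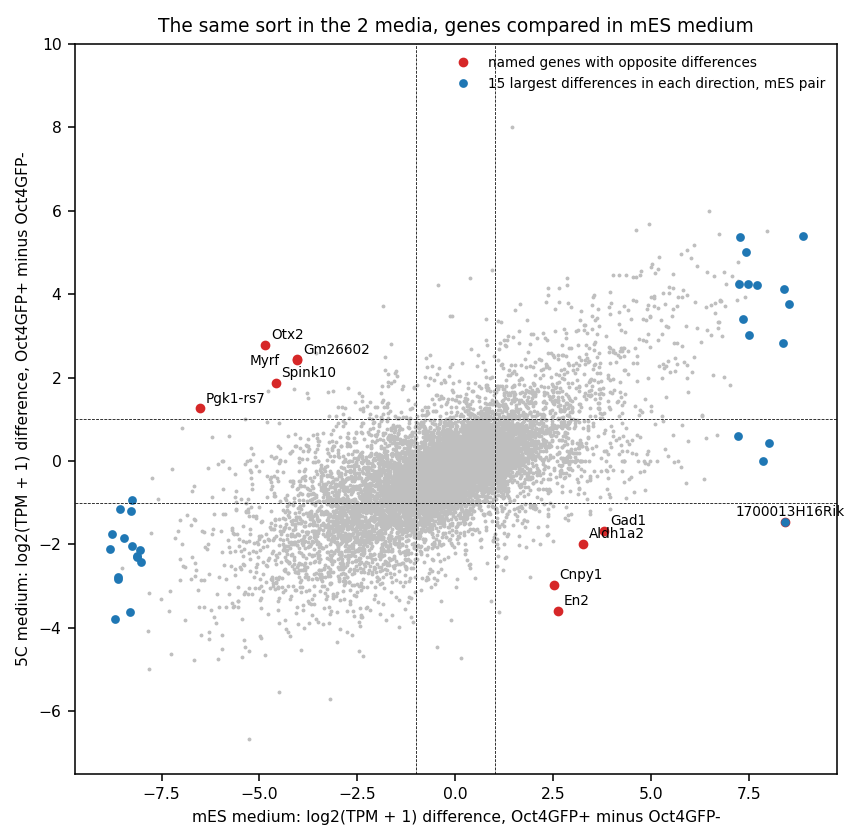
Each point is 1 of the 12567 genes compared in mES medium, with the log2(TPM + 1) difference of Oct4GFP+ minus Oct4GFP- in the mES pair on the horizontal axis and in the 5C pair on the vertical axis, and dashed lines at 2-fold. Blue points are the 15 protein-coding genes with the largest differences in each direction in the mES pair, and red points are the 10 named genes with the largest opposite differences, such as Otx2 at upper left and En2 at lower right.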

How the data were processed

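RNA of sorted cells was sequenced by the authors as 1 TruSeq library per group on a MiSeq. Per the submitters' processing notes, Bowtie, RSEM and the mm10 genome were used, and their versions are not given in the sources used here. For each of 29267 genes the authors deposited RSEM's estimated counts, which divide reads shared between genes and are not whole numbers. The deposited TPM values are scaled for gene length and to the same sum in each library, and the deposited FPKM values, scaled for length and depth, served as an alternative only. Retroviral transcripts, egfp and the 13 mitochondrially encoded genes are not reported here. The strand setting of the counting is not given in the sources used here, so that reads of overlapping antisense genes cannot be told apart.

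Genes reaching 5 TPM in one or both libraries were compared by the log2(TPM + 1) difference and called at 2-fold, and intervals of TPM ratios were Clopper-Pearson intervals at 95% from the estimated counts, rounded. Identifiers matched GENCODE M21 (GRCm38) for 28756 genes. Named genes were the 15 protein-coding genes with the largest difference in each direction, members of the gene lists (up to 4 a direction first), the reprogramming factors, and the 5 genes in each direction with the largest opposite differences in the 5C pair. The comparison, the members and the gene lists were chosen with earlier results of these data known. Analyses ran in Python 3.11.15 with pandas 2.3.3, numpy 2.4.6 and scipy 1.17.1 and were tested on simulated data. Alternatives were pseudocounts of 0.1 and 5, minimum TPM of 1 and 10, FPKM, median-ratio rescaling, and estimated counts scaled to the library total only.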

Additional observations from a re-analysis of the deposited data

Results flagged for a closer look

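Some genes moved past 2-fold in opposite directions in the 2 media, and they are given here because of that alone. With 1 library a group, none of these differences between media was tested. Values are log2(TPM + 1) differences, Oct4GFP+ minus Oct4GFP-, first for mES medium and then for 5C medium.

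Among genes higher in mES-Oct4GFP+ but lower in 5C-Oct4GFP+, the widest gap between the media was that of 1700013H16Rik, with 8.4 and -1.47. En2, a homeobox gene of the midbrain and hindbrain, had 2.62 and -3.59, and its neighbour Cnpy1 had 2.51 and -2.97. Gad1, which makes the transmitter GABA, had 3.79 and -1.68, and Aldh1a2 had 3.25 and -1.98. In the lists, the matrix gene Fbln1 had 1.69 and -1.49, Hoxb9 had 1.33 and -1.75, and Hoxc12 had 3.42 and -1.20. The imprinted gene Plagl1 had 1.32 and -1.81, neural Tubb3 and Ngfr had 1.91 and -1.03, and 2.42 and -1.01, and the acute phase gene Saa3 had 1.56 and -1.32.

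Among genes lower in mES-Oct4GFP+ but higher in 5C-Oct4GFP+, Otx2 had -4.86 and 2.79. Pgk1-rs7, a retroposed copy of Pgk1 whose reads the counting may have divided, had -6.53 and 1.26. Myrf, a membrane-bound transcription factor, had -4.05 and 2.44, Gm26602 had -4.04 and 2.43 and Spink10 had -4.59 and 1.87. Of the 30 epithelial genes compared, 7 moved this way, beside 77 of all 12567 genes compared. Esrp1 had -4.79 and 1.67, and Cldn6 and Cldn4 had -3.78 and 1.63, and -2.25 and 1.32. Crb3 had -2.74 and 1.76, Rab25 had -3.76 and 1.5, Prss8 had -2.87 and 1.12, and Ap1m2 had -1.79 and 2.5. The basement membrane genes Lama3 and Col18a1 had -1.26 and 1.06, and -1.85 and 1.45. The glycolytic genes Pfkp and Pdk1 had -1.89 and 1.64, and -2.46 and 1.62. The remaining members were Phlda2 with -2.90 and 1.29, Bmp4 with -2.39 and 1.55, Hmox1 with -1.44 and 1.02, Cd68 with -1.89 and 1.05 and Kdr with -2.04 and 1.07.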

How the results depend on the processing

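No paired analysis was possible because each group has 1 library, and for the same reason no replicate could be left out. Over the alternatives, the number of genes at least 2-fold higher in mES-Oct4GFP+ ranged from 1712 to 2921 (2128 as reported) and of those lower from 2611 to 4685 (3511 as reported). The lowest counts came with a pseudocount of 5 and with FPKM, respectively, and the highest with a minimum TPM of 1. FPKM moved the median difference of all genes by 0.16 on the log2 scale, to 0.03, and raised the share of calls that were higher from 37.7% to 43.9%. Requiring that the counting interval left out 1 gave 2110 and 3493 genes. In the same sorting contrast in 5C medium, genes past 2-fold in the direction of the mES pair numbered 2475 as reported and 1562 with a pseudocount of 5. The other alternatives kept that number within 1.5 times. No gene list turned from more members higher to more lower or the reverse. None of the 43 named genes followed here reversed with FPKM, median-ratio rescaling or counts scaled to the library total only. A change of pseudocount or minimum cannot reverse a gene. Most of the 43 were chosen for a large difference, so that few could have reversed. With FPKM, 77 of the 86 list counts were within 1.5 times of the reported count, the fewest of all alternatives. With 1 library a group, neither differences between cultures nor the error of sorting can be measured, and genes under about 1 TPM rest on few counts.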

Other observations

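Genes outside the lists were looked at after their values were seen. Several long noncoding RNAs differed between the fractions. Lncenc1, known from naive embryonic stem cells, had 288.8 TPM in mES-Oct4GFP+ against 0.17 TPM in mES-Oct4GFP-. Malat1 and Neat1, which stay in the nucleus, were lower in mES-Oct4GFP+, with 56 against 895 TPM and 17.6 against 139 TPM. Kit, a receptor kinase of germ cells and stem cells, had 121.5 against 10.4 TPM. Ly6a, which encodes the surface protein Sca-1, had 11.8 against 1603 TPM. Vegfa and Ankrd37, which hypoxia induces, had 33.3 against 293 TPM and 4.53 against 126 TPM, the same direction as Egln3 and Bnip3.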
